A study of Mus musculus with 12 samples.

Results

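The receptors for the constant part of immunoglobulin G, their signalling chains and the kinase and adaptor below them were followed through 4 populations of mouse bone marrow progenitors. The 8 genes were Fcgr1, Fcgr2b, Fcgr3, Fcgr4, Fcer1g, Tyrobp, Lcp2 and Syk, and every probe set whose annotation gave exactly 1 of these symbols was taken. This gave 17 probe sets of 8 genes, out of 45037 probe sets and 18193 named genes on the arrays. Lineage-negative, CD117+ and Sca-1- cells of female C57BL/6 mice aged 4 to 6 weeks were sorted into 4 groups, with 3 Affymetrix Mouse Genome arrays each. MEP (megakaryocyte-erythrocyte progenitors) lacked CD34, CD16/32 and CD27, and GMP (granulocyte-monocyte progenitors) carried all of these. Common myeloid progenitors (CMP) carried CD34 without CD16/32 and were sorted as 2 fractions, CD27+ and CD27-. No mouse was treated, and the labels name no allele, transgene or pooling of mice. They call the arrays of a group biological replicates without naming the animals, so p-values measure the spread between these arrays.

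Fc gamma receptors let myeloid cells bind antibody-coated particles. Fcgr1, Fcgr3 and Fcgr4 encode activating receptors, whose ligand-binding chains need the common gamma chain encoded by Fcer1g for assembly and signalling, whereas Fcgr2b encodes the inhibitory receptor. The gamma chain and DAP12, encoded by Tyrobp, carry the immunoreceptor tyrosine-based activation motif (ITAM). Once phosphorylated, the ITAM recruits the kinase Syk, which phosphorylates adaptors such as SLP-76, encoded by Lcp2. In bone marrow, the antibody against CD16/32, the products of Fcgr3 and Fcgr2b, is the standard reagent for parting GMP from CMP. The arrays therefore read the RNA of 2 genes whose proteins defined the gates, and the comparisons of GMP with CMP and with MEP are not independent of the sort for Fcgr3 and Fcgr2b.

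Fcgr2b, Fcgr4 and Fcgr3 are consecutive protein-coding genes in RefSeq's GRCm38.p6, and Tyrobp lies beside Hcst. Promoter windows of 300 bases, from 250 before to 50 after a transcription start, were taken from RefSeq (GRCm38.p6) and matched 7 of the 8 genes by symbol, in 9 windows. They were searched on both strands for GAGGAAG, a core bound by PU.1 and other ETS factors, for AGATAA, a core bound by GATA factors, and for TTGCNNAA, a core bound by C/EBP factors. GAGGAAG stood in 4 windows, those of Fcgr1, Fcgr3 (2 overlapping windows) and Fcgr4, against 13.6% of all 32851 windows of this length. The windows of the 3 activating receptors are shown because they share this core while the genes differed on the arrays. Each is written on its own gene's strand from 5′ to 3′, and capitals mark the core, which reads CTTCCTC because it lies on the opposite strand.
Fcgr1, chr3:96293920-96294219, minus strand: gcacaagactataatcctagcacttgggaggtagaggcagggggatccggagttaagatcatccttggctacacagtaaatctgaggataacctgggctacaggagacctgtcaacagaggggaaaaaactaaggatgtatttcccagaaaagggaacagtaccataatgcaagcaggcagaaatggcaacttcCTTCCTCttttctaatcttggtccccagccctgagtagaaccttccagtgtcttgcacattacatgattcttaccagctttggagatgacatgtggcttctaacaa
Fcgr3, chr1:171059354-171059653, minus strand: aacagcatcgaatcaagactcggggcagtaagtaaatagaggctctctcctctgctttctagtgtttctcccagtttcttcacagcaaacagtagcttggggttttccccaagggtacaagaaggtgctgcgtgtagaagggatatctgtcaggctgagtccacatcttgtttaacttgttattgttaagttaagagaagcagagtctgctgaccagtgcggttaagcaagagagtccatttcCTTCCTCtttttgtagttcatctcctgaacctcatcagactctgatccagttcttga
Fcgr4, chr1:171018676-171018975, plus strand: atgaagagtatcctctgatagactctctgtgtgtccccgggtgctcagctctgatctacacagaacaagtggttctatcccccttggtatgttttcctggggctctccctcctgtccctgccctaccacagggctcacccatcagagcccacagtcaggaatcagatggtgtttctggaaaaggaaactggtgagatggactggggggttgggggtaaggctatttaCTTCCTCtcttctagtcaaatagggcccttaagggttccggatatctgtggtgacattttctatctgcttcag
The first base of the core lay at -56 from the start in Fcgr1, at -7 in the Fcgr3 window shown and at -23 in Fcgr4. AGATAA stood at 2 places in the Lcp2 window and in no other, against 11.2% of all windows. TTGCNNAA stood in the 2 Fcgr3 windows, against 10.8% of all windows. These matches describe the letters alone.

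The deposited values are log2 signals centred on the median of the 12 arrays for each probe set, so a value of 3 lies 3 log2 units above that median. Levels of different genes cannot be compared on this scale, and a probe set without change may measure a silent gene or an evenly expressed gene. Array medians ran from -0.0267 to 0.0549. Differences were tested with limma over all 45037 probe sets and called at a Benjamini-Hochberg adjusted p under 0.05, with SE the standard error of the log2 difference. Each gene is read first by whichever of its probe sets had the highest standard deviation (SD) across arrays. Each array averages RNA of many sorted cells, so fewer cells of a type and less RNA per cell cannot be told apart.

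Of the 17 probe sets, 11 were higher in CD27+ than in CD27- CMP and 0 lower, covering 6 of the 8 genes, where 7.65% of all probe sets were higher and 6.49% lower. In GMP against MEP, 12 of 17 were higher and 0 lower, covering 7 genes, where 7.54% of all probe sets were higher and 7.27% lower, and 5 of these 12 belong to the gated genes Fcgr2b and Fcgr3. GMP exceeded CD27+ CMP for 3 probe sets of 3 genes, Fcgr2b, Fcgr3 and Fcgr4, against 1.57% of all probe sets, and 0 were lower, against 1.47%. Among these genes, Fcgr2b and Fcgr3 are again the gated ones, so this count is not independent of the sort. CD27- CMP exceeded MEP for 1 probe set, of Lcp2, against 0.0111% of all probe sets, and 0 were lower, against 0.0333%. CD27+ CMP against MEP and GMP against CD27- CMP gave 11 higher each and 0 lower, where 7.67% and 7.90% of all probe sets were higher and 8.34% and 6.30% lower. Those called in GMP against CD27- CMP also include probe sets of the gated Fcgr2b and Fcgr3. The median of the 17 differences was 2.25 log2 between the CMP fractions, 2.60 in GMP against MEP and 0.00 in GMP against CD27+ CMP, beside -0.02, -0.04 and 0.01 over all probe sets. These comparisons share arrays, so their counts are not separate evidence.

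**Figure D1:**
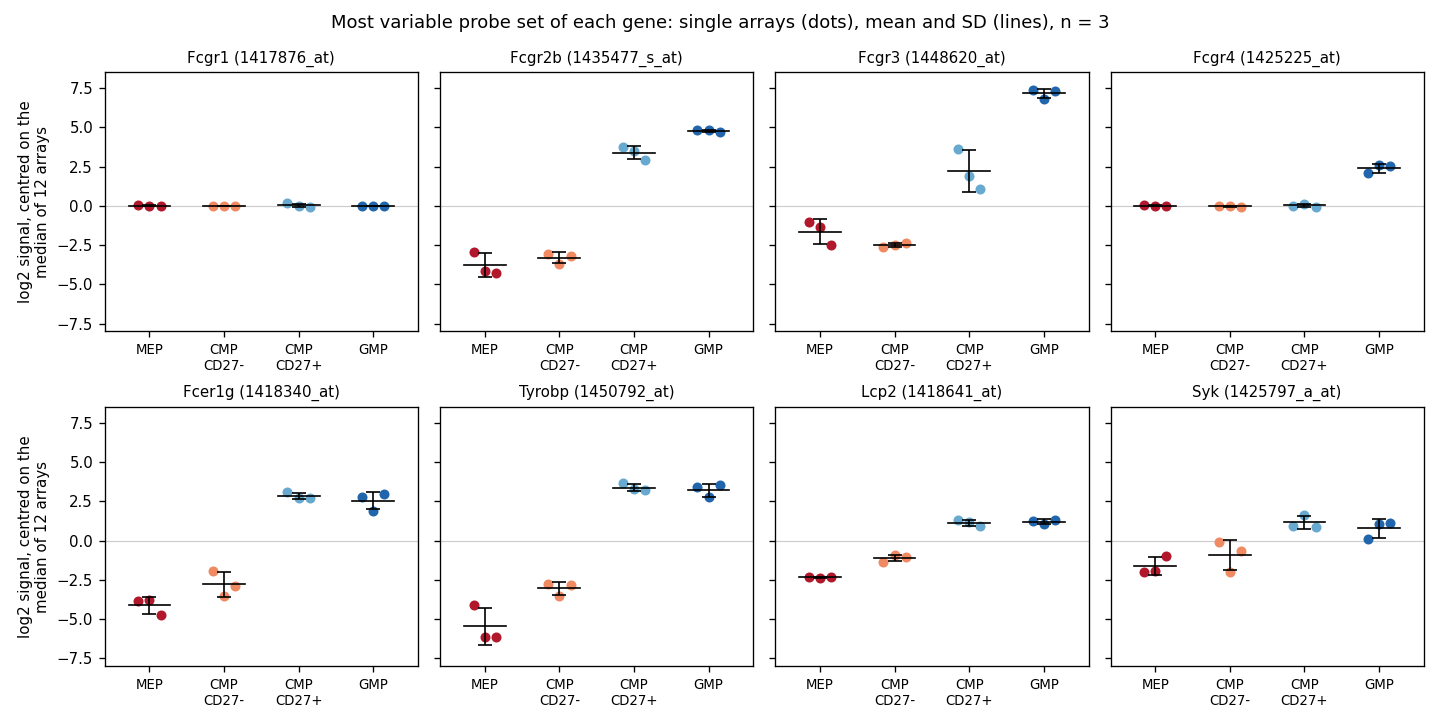
Single-array values (dots) of the most variable probe set of each of the 8 genes in the 4 populations, with the mean and SD of 3 arrays, on the centred log2 scale. Fcgr3 rose in steps, to 2.20 in CD27+ CMP and 7.16 in GMP, Fcgr4 stood at 2.39 in GMP and near 0 elsewhere, and Fcer1g, Tyrobp, Lcp2 and Syk had overlapping CD27+ CMP and GMP arrays.

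Fcgr3 encodes the low-affinity activating receptor known as CD16. Its 1 probe set (1448620_at) read 7.35, 6.80 and 7.31 in the 3 GMP arrays, 3.65, 1.92 and 1.04 in CD27+ CMP, -2.63, -2.50 and -2.39 in CD27- CMP and -1.04, -1.36 and -2.51 in MEP. The 3 GMP arrays lay above all others, the 3 CD27+ CMP arrays lay between, and the CD27- CMP and MEP arrays overlapped. For Fcgr3, GMP exceeded CD27+ CMP by 4.95 log2 (SE 0.604, adjusted p = 0.0022 by limma), a 31.0-fold difference. CD27+ CMP exceeded CD27- CMP by 4.71 log2 (SE 0.604, adjusted p = 0.00055). Both fractions were sorted without CD16/32. Between CD27- CMP and MEP the difference was -0.87 log2, with a 95% interval from -2.24 to 0.50. When only the 6 arrays of GMP and CD27+ CMP entered the fit, the adjusted p of their difference was 0.061, and Fcgr3 did not pass.

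The CD27+ CMP arrays varied more for Fcgr3 (SD 1.32, n = 3) than the GMP (0.31) or CD27- CMP arrays (0.12). Replicate 1 was the highest of the CD27+ CMP arrays. Marker lists differed in the same array: the 9 late neutrophil genes averaged 0.57 in replicate 1 against 0.08 and -0.18 in the others, and the 5 primary granule genes averaged 2.94 against 2.57 and 2.05. Their part in the Fcgr3 spread was not tested. Without CD27+ CMP replicate 1, GMP exceeded CD27+ CMP by 5.67 (adjusted p = 0.00034) and CD27+ CMP exceeded CD27- CMP by 3.99 (adjusted p = 0.00046).

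Fcgr2b, the gene of the inhibitory receptor CD32b, had 5 probe sets. The one with the largest SD (1435477_s_at) read -2.91, -4.16 and -4.28 in the MEP arrays, -3.05, -3.68 and -3.18 in CD27- CMP, 3.72, 3.50 and 2.91 in CD27+ CMP and 4.82, 4.84 and 4.69 in the GMP arrays. Fcgr2b thus stood high in GMP and CD27+ CMP and low in CD27- CMP and MEP, with a wide gap between these pairs. CD27+ CMP exceeded CD27- CMP by 6.68 log2 (SE 0.359, adjusted p = 1.9e-06 by limma), or 103-fold, and GMP exceeded MEP by 8.57 (adjusted p = 3.3e-07). The suffix _s_at marks a probe set whose probes match several transcripts, and _x_at one with probes that may bind other transcripts. The related receptor genes are similar in sequence, so signal from a relative is possible for these, and its part was not tested.

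The step of Fcgr2b from CD27+ CMP to GMP was small and its call depended on the probe set. Probe set 1451941_a_at read 4.85, 4.70 and 4.80 in the GMP arrays and 3.36, 3.06 and 2.72 in CD27+ CMP, and GMP exceeded CD27+ CMP by 1.74 log2 (SE 0.134, adjusted p = 0.00018 by limma). Probe sets 1435477_s_at (1.40, adjusted p = 0.091), 1455332_x_at (1.44, adjusted p = 0.082) and 1435476_a_at (1.44, adjusted p = 0.45) did not pass, though in each the GMP arrays lay above the CD27+ CMP arrays, which held for 6.71% of all probe sets. The 95% intervals of these 3 differences, not adjusted for multiple tests, ran from 0.59 to 2.22, from 0.63 to 2.26 and from 0.06 to 2.83. With only probe sets spanning at least 0.5 log2 in the fit, the adjusted p was 0.021 for 1435477_s_at and 0.018 for 1455332_x_at, and both then passed; the latter also passed in the 6 arrays alone (0.039). The fifth probe set, 1447622_at, spanned 0.09 log2 over the 12 arrays and passed in no comparison. Against CD27- CMP the other 4 gave GMP an excess of 5.72 to 8.09 log2.

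Fcgr4 encodes an activating receptor of mature monocytes, macrophages and neutrophils. Its 1 probe set (1425225_at) read 2.07, 2.58 and 2.51 in GMP, and the other 9 arrays lay between -0.08 and 0.12. The GMP arrays stood alone, and the other 3 groups overlapped around 0. For Fcgr4, GMP exceeded CD27+ CMP by 2.36 log2 (SE 0.115, adjusted p = 1.1e-05 by limma), a 5.14-fold difference. In CD27+ against CD27- CMP it differed by 0.05 log2, with a 95% interval from -0.21 to 0.31. With 9 of 12 arrays near the median, the size of the GMP excess rests on a baseline that may be background signal. Fcgr1, the gene of the high-affinity receptor CD64, was flat: its 2 probe sets spanned 0.21 and 0.11 log2 and passed in none of the 6 comparisons.

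**Figure D2:**
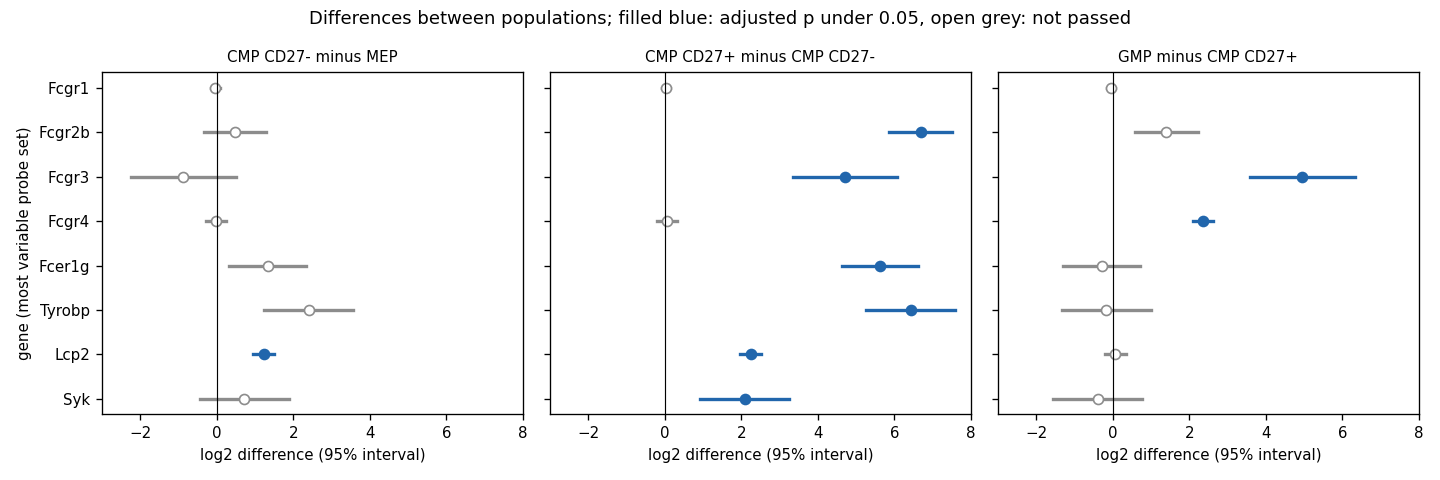
Log2 differences with 95% intervals between CD27- CMP and MEP, CD27+ and CD27- CMP, and GMP and CD27+ CMP, for the most variable probe set of each gene; filled points passed and open points did not. Fcgr3 (4.95) and Fcgr4 (2.36) passed in GMP against CD27+ CMP, whereas the intervals of Fcer1g, Tyrobp, Lcp2 and Syk there included 0, and Lcp2 alone of these 8 probe sets passed in CD27- CMP against MEP.

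The signalling chains followed another course. Fcer1g, the common gamma chain (1418340_at), read 3.08, 2.69 and 2.74 in CD27+ CMP, 2.77, 1.91 and 2.96 in GMP, -1.91, -3.53 and -2.92 in CD27- CMP and -3.85, -3.77 and -4.75 in MEP. CD27+ CMP and GMP overlapped, and both lay above every CD27- CMP and MEP array. For Fcer1g, CD27+ CMP exceeded CD27- CMP by 5.62 log2 (SE 0.443, adjusted p = 2.3e-05 by limma), or 49.3-fold. Between GMP and CD27+ CMP it differed by -0.29 log2, with a 95% interval from -1.29 to 0.72. The 3 CD27- CMP arrays lay above the 3 MEP arrays, which held for 1.63% of all probe sets, and their difference of 1.34 did not pass (adjusted p = 0.73).

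Tyrobp, encoding DAP12 (1450792_at), read 3.64, 3.31 and 3.20 in CD27+ CMP, 3.38, 2.75 and 3.51 in GMP, -2.75, -3.53 and -2.86 in CD27- CMP and -4.09, -6.12 and -6.13 in MEP. Its order was that of Fcer1g, with CD27+ CMP and GMP overlapping. For Tyrobp, CD27+ CMP exceeded CD27- CMP by 6.43 log2 (SE 0.515, adjusted p = 2.5e-05 by limma), or 86.2-fold, and GMP and CD27+ CMP differed by -0.17, with a 95% interval from -1.33 to 1.00. All CD27- CMP arrays again lay above all MEP arrays. That difference of 2.40 log2 did not pass (adjusted p = 0.29), but without MEP replicate 1, the highest MEP array, it was 3.08 with adjusted p = 0.015. Hcst, which lies next to Tyrobp and encodes the adaptor DAP10, read 2.01, 2.36 and 2.53 in CD27+ CMP, 2.04, 1.54 and 3.27 in GMP, -1.56, -2.10 and -1.54 in CD27- CMP and -3.89, -2.67 and -2.71 in MEP. For Hcst, CD27+ CMP exceeded CD27- CMP by 4.04 log2 (SE 0.462, adjusted p = 0.00026).

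Because an activating receptor needs the gamma chain, the centred values of Fcgr3 and Fcer1g were also set against each other within each array, a contrast chosen after their values were seen. Fcgr3 minus Fcer1g was 4.35 to 4.89 in the 3 GMP arrays and -1.69 to 0.57 in the 3 CD27+ CMP arrays. These groups did not overlap, so the 2 genes changed unequally between them. The sort parted these groups by the products of Fcgr3 and Fcgr2b, so for both genes such a separation is not independent of the gates. Fcgr3 minus Fcer1g was 2.23 to 2.80 in MEP, where Fcgr3 averaged -1.64 and Fcer1g -4.12, and -0.72 to 1.02 in CD27- CMP. On this scale a positive difference does not mean more Fcgr3 than Fcer1g RNA. The separation of GMP from CD27+ CMP was shared by Fcgr2b, the inhibitory receptor gene. Its difference from Fcer1g was 1.73 to 2.93 in GMP and 0.17 to 0.81 in CD27+ CMP. Fcgr4 shared it too, at -0.70 to 0.67 and -3.08 to -2.57. However, Fcgr4 minus Fcer1g was higher than in GMP in both CD27- CMP (1.91 to 3.53) and MEP (3.75 to 4.73). There Fcgr4 lay near its median and Fcer1g below its own. An exact permutation test of 3 against 3 arrays cannot go below p = 0.10, and none was run.

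Lcp2, the gene of SLP-76, had a varying probe set (1418641_at) and a nearly flat one. The first read 1.29, 1.19 and 0.94 in CD27+ CMP, 1.27, 1.06 and 1.31 in GMP, -1.34, -0.94 and -1.05 in CD27- CMP and -2.33, -2.36 and -2.32 in MEP. It formed 3 levels, with CD27+ CMP and GMP together at the top, CD27- CMP between and MEP lowest. For Lcp2, CD27+ CMP exceeded CD27- CMP by 2.25 log2 (SE 0.119, adjusted p = 1.8e-06 by limma), or 4.75-fold. It was higher in CD27- CMP than in MEP by 1.23 log2 (SE 0.119, adjusted p = 0.011), or 2.34-fold, as 1 of only 5 probe sets of 45037 called in this direction. When the 6 arrays of CD27- CMP and MEP were fitted alone, the adjusted p was 0.20 and neither Lcp2 nor any other probe set passed. GMP and CD27+ CMP differed by 0.07, with a 95% interval from -0.20 to 0.34. The second probe set, 1418642_at, spanned 0.44 log2 and differed between the CMP fractions by 0.23 (adjusted p = 0.14), or by 0.31 with adjusted p = 0.024 without CD27+ CMP replicate 1.

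Syk, the kinase that binds phosphorylated ITAMs, had 3 varying probe sets and a flat one (1457239_at, spanning 0.25 log2). The one with the largest SD, 1425797_a_at, read -1.99, -1.96 and -0.97 in MEP, -0.11, -1.98 and -0.68 in CD27- CMP, 0.95, 1.65 and 0.90 in CD27+ CMP and 0.11, 1.08 and 1.14 in the GMP arrays. CD27+ CMP and GMP overlapped above the other 2 groups, which also overlapped. The difference of 2.09 between CD27+ and CD27- CMP passed (SE 0.511, adjusted p = 0.024 by limma), but it did not without CD27+ CMP replicate 1, 2 or 3 (adjusted p = 0.054, 0.082 and 0.051) or without CD27- CMP replicate 2 (0.060). It did not pass in the 6 arrays alone either (0.092). GMP against CD27- CMP, at 1.70, did not pass (adjusted p = 0.060), and passed without CD27- CMP replicate 1 (2.10, adjusted p = 0.031) or with the range filter (adjusted p = 0.012).

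The Syk probe set 1418261_at read 0.82, 1.21 and 0.95 in CD27+ CMP, 0.77, 1.02 and 1.03 in GMP, -0.77, -1.03 and -2.14 in CD27- CMP and -1.76, -1.76 and -1.46 in MEP. Its groups lay in the same 2 overlapping pairs. By this probe set, CD27+ CMP exceeded CD27- CMP by 2.31 log2 (SE 0.302, adjusted p = 0.00063 by limma), or 4.95-fold, and by 1418262_at by 1.99 (SE 0.285, adjusted p = 0.0011). In 1418262_at the 3 GMP arrays (0.37, 0.44 and 0.92) lay below the 3 CD27+ CMP arrays (0.97, 1.43 and 1.05), which held for 5.54% of all probe sets. That difference of -0.57 did not pass (adjusted p = 0.63), but with array weights, which did not converge, it was -0.78 and passed (adjusted p = 0.0045). GMP arrays overlapped those of CD27+ CMP in 1418261_at.

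**Figure D3:**
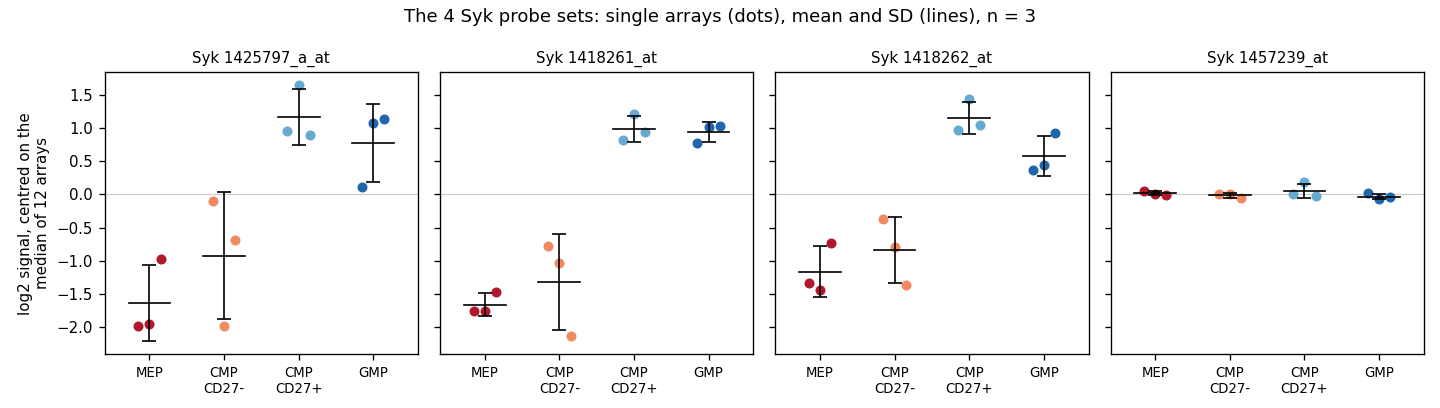
Single-array values (dots), mean and SD of 3 arrays for the 4 Syk probe sets on the centred log2 scale. The first 3 place CD27+ CMP and GMP above CD27- CMP and MEP, with CD27- CMP arrays from -0.11 to -1.98 in 1425797_a_at, and 1457239_at is flat.

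Over the 12 arrays the Pearson correlation was 0.988 between Fcer1g and Tyrobp, 0.985 between Tyrobp and Lcp2 and 0.972 between Fcer1g and Lcp2. For Syk it was 0.902 with Fcer1g, 0.891 with Tyrobp and 0.878 with Lcp2. With Fcer1g it was 0.972 for Fcgr2b, 0.836 for Fcgr3 and 0.542 for Fcgr4. These 12 points share 4 groups, so the values describe the group pattern.

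For each member that spanned at least 1 log2, the 3 named genes with the most similar profile were taken from 7981 genes, by Pearson correlation over the 12 arrays. Those nearest Fcgr4 were Cd14 (0.997), a coreceptor for endotoxin, Far2 (0.994) and Grb14 (0.994). Cd14 stood at 3.58 ± 0.31 in GMP and between -0.02 and 0.17 in the other groups (SD, n = 3). Those nearest Fcgr3 were B4galt6, Mgst2 and Mtus1 (0.991 each), and like Fcgr3 they read highest in replicate 1 among the CD27+ CMP arrays, at 2.63, 2.42 and 2.36. Choosing them by correlation over these same arrays favours that likeness. For Tyrobp they were the lysozyme gene Lyz2 (0.995), Alox5ap (0.995), encoding the activating protein of 5-lipoxygenase, and Ms4a6c (0.994). Those of Fcer1g were Cmtm3, Glipr1 and the second lysozyme gene Lyz1, from 0.993 to 0.995. Fcgr2b had Arhgef6 (0.997), Sorl1 (0.995) and Tnfaip8 (0.995). Lcp2 had the myosin gene Myo1g (0.994), Plekha2 (0.989) and the ETS factor gene Fli1 (0.989), all with MEP below CD27- CMP in mean, Fli1 at -2.47 against -1.38. Syk by 1425797_a_at had Camk1 (0.973), Hmox2 (0.969) and Thap3 (0.966).

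The rest of the pathway was read from 6 lists, each gene by its most variable probe set. Of 93 measured genes, 37 were higher and 2 lower in CD27+ CMP than in the CD27- fraction, with a median difference of 0.42 log2. Over all genes 11.3% were higher and 9.31% lower, with a median of -0.03. In GMP against CD27+ CMP 8 were higher and 6 lower, beside 2.25% and 2.27% of all genes. In CD27- CMP against MEP 0 were called by limma, beside 0.0165% of all genes higher and 0.0165% lower, and 15 had an unadjusted p under 0.05. No share of all genes was taken at an unadjusted p, so counts at that threshold have no background to be set against.

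Of 17 receptors listed beside the ITAM and DAP10 adaptors, 6 were higher and 1 lower in CD27+ than in CD27- CMP. Coupling to an adaptor was not checked for each of the 17. The C-type lectin gene Clec4e (6.74 log2, adjusted p = 1.7e-08 by limma), Cd300lb (6.25), Trem3 (5.96) and Clec7a (5.43), whose beta-glucan receptor recruits Syk without an adaptor, had the largest differences, and Clec4d was lower (-1.13). In GMP against CD27+ CMP 3 were higher, Clec5a by 3.92, Trem3 by 2.84 and Trem1, an amplifier of inflammatory signals, by 2.21 (adjusted p = 0.012). Clec4e read 2.34 by its second probe set in the CMP comparison, and the second of Trem1 read -0.02 there and 2.06 in GMP against CD27+ CMP. Trem2 (-0.05), Oscar (0.00) and the platelet collagen receptor gene Gp6 (-0.08) did not pass between the CMP fractions.

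Of 9 other Fc receptor genes, Ms4a2, encoding the beta chain of the high-affinity IgE receptor, was the 1 called in either of these comparisons. Between the CMP fractions this count does not set the list apart from all genes, of which 11.3% rose and 9.31% fell. The list median there was -0.02 log2. CD27+ CMP exceeded CD27- CMP for Ms4a2 by 2.25 log2, and GMP exceeded CD27+ CMP by 1.38 (adjusted p = 0.038 by limma). The second Ms4a2 probe set read 0.40 and 1.82. Fcer1a, the alpha chain gene of that receptor, which also pairs with the gamma chain, differed by -0.02 and 0.36 and did not pass. Of 7 other ITAM and DAP10 adaptors 2 were higher in CD27+ CMP, Hcst and the B cell receptor chain gene Cd79b (5.10), and 0 differed between GMP and CD27+ CMP. Cd79a (-0.01) and the T cell receptor chain gene Cd3e (-0.04) did not pass.

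Kinases of the Src and Tec families gave 3 higher of 11 in CD27+ against CD27- CMP, Tec (2.55), Fyn (0.92) and Btk (0.64). In GMP against CD27+ CMP Bmx was higher (2.54, adjusted p = 0.00014) and Fyn lower (-2.01, adjusted p = 0.00074), with a second Fyn probe set at -1.94. Fgr, a Src kinase of mature myeloid cells, did not pass (-0.02 and 0.02).

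Adaptors and effectors below Syk were the list with the most calls, 15 of 24 higher and 0 lower in CD27+ against CD27- CMP, with a median of 1.44 log2. The exchange factor gene Vav3 (6.12), the transmembrane adaptor gene Lat2 (4.99), the phospholipase gene Plcg2 (3.38) and Pik3ap1 (3.24), a PI3 kinase adaptor, had the largest differences. The other probe sets of Vav3 read 0.40 and 5.20, those of Lat2 0.03 and 0.08, and that of Pik3ap1 0.00. In GMP against CD27+ CMP 0 of the 24 were higher and 5 lower: Lat (-2.52), Lat2 (-1.67), the SLP-76-binding adaptor gene Fyb (-1.36), Plcg1 (-0.89) and Dapp1 (-0.88), the last named after its values were seen. The second probe set of Fyb read -1.29 and that of Dapp1 -0.65, which did not pass, and the others of Lat2 and Plcg1 read between -0.08 and 0.02. Blnk (0.75), Clnk (1.22) and Grap2 (-0.06) did not pass between the CMP fractions.

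Of 25 genes of inhibitory receptors, phosphatases and negative regulators, 10 were higher and 1 lower in CD27+ than in CD27- CMP. Sirpa (5.99), the receptor for CD47, the inhibitory receptor gene Cd300a (4.02), Sla (3.95) and the gene of the CD45 phosphatase, Ptprc (2.55), had the largest differences. The adaptor gene Dok1 was lower (-1.30). Sirpa read 0.85 and 1.74 by its other probe sets, Cd300a 0.05 and Ptprc 0.37. In GMP against CD27+ CMP Clec4a2 (4.84), Pilra (1.06) and Sirpa (0.67) were higher and 0 lower, and the second probe set of Clec4a2 read 0.06. Pirb (-0.07), Cd33 (0.02) and Ptpn11 (0.31) did not pass between the CMP fractions.

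**Figure D4:**
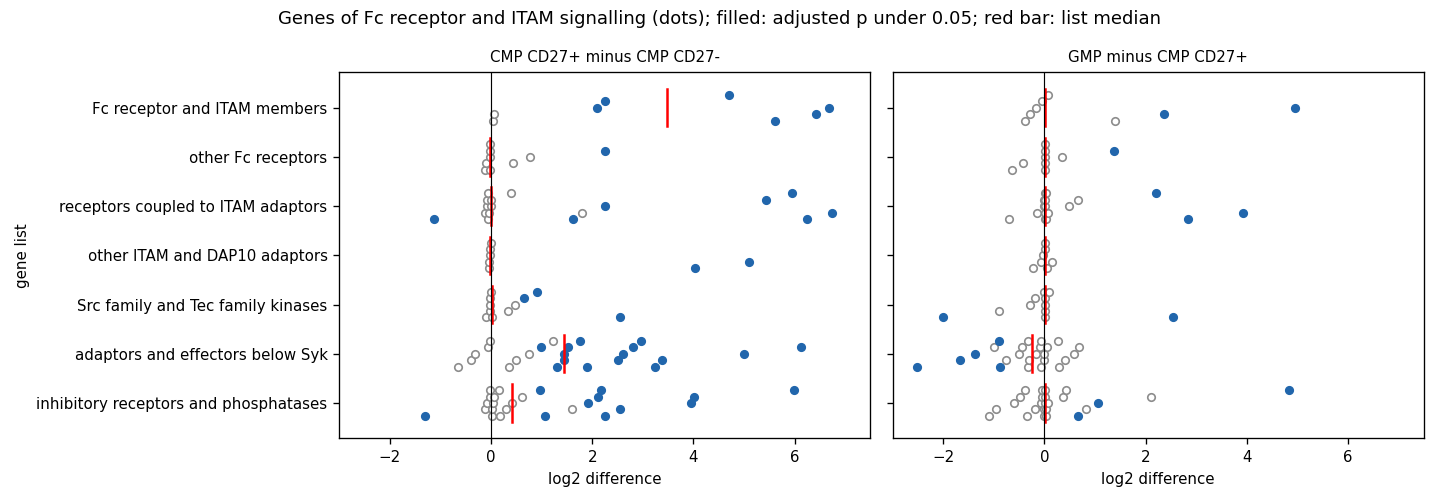
Log2 differences of the members and 6 lists of pathway genes, by the most variable probe set of each gene, between CD27+ and CD27- CMP and between GMP and CD27+ CMP; filled dots passed, open dots did not, and the red bar is the list median. The name of the list of receptors coupled to ITAM adaptors does not hold for every gene in it, such as Clec7a, which needs none. Adaptors and effectors below Syk lay mostly to the right in the first comparison (15 of 24 higher), and those called in the second (5 of 24) were all lower.

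Markers of other cell types moved with these groups, and their part in the results was not tested. Beside the marker counts between the CMP fractions, 11.3% of all genes were higher in CD27+ CMP and 9.31% lower. Of 11 monocyte and macrophage markers 7 were higher in CD27+ than in CD27- CMP, and their mean ran from 1.95 to 2.18 in CD27+ CMP, 2.07 to 2.39 in GMP, -1.97 to -1.76 in CD27- CMP and -2.21 to -1.66 in MEP. The 5 primary granule markers were higher in full. Of 9 late neutrophil markers 0 passed between the CMP fractions by limma (2 at an unadjusted p under 0.05). In GMP against MEP 3 were higher, beside 7.54% of all probe sets, and the share by gene is not given. Their means ran from 0.89 to 1.51 in GMP and -0.18 to 0.57 in CD27+ CMP. Mast cell and basophil markers, of which 4 of 8 were higher in CD27+ CMP, averaged 1.20 to 1.45 there and 2.00 to 2.05 in GMP. Among them CD27+ CMP exceeded CD27- CMP for the protease genes Mcpt8 (7.18, adjusted p = 1.7e-08) and Cpa3 (6.58), the histidine decarboxylase gene Hdc (5.12) and Ms4a2. The mast cell protease genes Cma1, Mcpt4 and Tpsb2 differed by at most 0.05 log2 in each of the 6 comparisons. The means of 7 mature B cell and 9 mature T and NK cell markers stayed between -0.04 and 0.09 in all 12 arrays. Erythroid markers, 8 of 9 lower in CD27+ CMP, averaged 2.84 to 3.16 in CD27- CMP and MEP and -4.76 to -2.72 in CD27+ CMP and GMP. Of 8 platelet and megakaryocyte markers 2 were lower in CD27+ than in CD27- CMP, and their mean was 1.75, 0.38 and 0.26 in the CD27- CMP arrays, 1.09, 0.44 and 0.02 in MEP, -0.68 to -0.14 in CD27+ CMP and -1.41 to -0.33 in GMP. By most variable probe set, replicate 1 of CD27- CMP and of MEP, highest here, also read highest within its group for Tyrobp and Fcgr2b. The same held in CD27- CMP for Fcer1g and Syk, and in MEP for Fcgr3. Other members went the other way. Lcp2 (-1.34) and Fcgr3 (-2.63) read lowest in CD27- CMP replicate 1, and Syk (-1.99) read lowest in MEP replicate 1. Centred values do not give the absolute level of any marker.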

How the data were processed

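The authors deposited log2 values that come from GCRMA according to the submitters' processing notes. Its version and the log base were not given in the sources used here, and base 2 was taken because GCRMA works on it. The median of every probe set over the 12 arrays lies within 5e-07 of 0, so absolute signal is lost. Weak signals are pulled to a background level by GCRMA, which leaves the size of large folds uncertain. Per the labels' protocols, Trizol and the RNeasy Micro kit gave the total RNA, from which biotin-labelled cRNA was made. The number of arrays limits the precision. Over all probe sets the median SE of a difference was 0.0904 log2. By most variable probe set, the SE of the members ran from 0.0483 for Fcgr1 to 0.604 for Fcgr3.

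Annotation gave 1 symbol to 34945 probe sets, several to 932 and none to 9160. RefSeq's GRCm38.p6 table held the gene number of 34741 single-symbol probe sets, and changed 0 symbols. All 12 arrays entered 1 fit in limma 3.58.1 (R 4.3.3), with 1 mean per population, default empirical Bayes and two-sided tests, and p-values were adjusted over all 45037 probe sets, including those of genes. The script was tested on simulated data. The members and lists were chosen with earlier results of these data known. Named pathway genes were, per list, up to the 4 largest called differences each way in CD27+ against CD27- CMP and in GMP against CD27+ CMP, and up to 3 that did not pass, with Dapp1 added. Same-numbered arrays deviated together from their group means for GMP with CD27+ CMP (correlations 0.572, 0.226 and 0.261) and GMP with MEP (0.434, 0.275 and 0.576). In the other 4 comparisons not every such pair correlated over 0.1. The labels name no shared animal or day. Alternatives were another normalization, array centring, a range filter, array weights, a replicate block, the mean of a gene's probe sets, only the arrays compared and leaving out each array.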

Additional observations from a re-analysis of the deposited data

How the results depend on the processing

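The direction of every called difference of the 17 probe sets held under all alternatives run. Of their values under the alternatives 1262 kept their side of the threshold, 24 newly passed and 10 no longer passed. The count in GMP against CD27+ CMP was 3 and became 5 with the range filter, 8 with array weights and 5 with gene-by-gene weights. The 8 included probe sets lower in GMP, Syk 1418262_at (-0.78, adjusted p = 0.0045 by limma) and Lcp2 1418642_at (-0.19, adjusted p = 0.049). The default weights did not converge, giving MEP replicate 2 a weight near 0, so the gene-by-gene method was added after seeing the data. In CD27- CMP against MEP the count of 1 became 3 with gene-by-gene weights, 0 with the replicate block (Lcp2 at adjusted p = 0.076) and 0 in the 6 arrays alone. Leaving out arrays gave 10 to 11 probe sets between the CMP fractions, 12 in GMP against MEP, 3 in GMP against CD27+ CMP, 1 to 2 in CD27- CMP against MEP, and 11 to 12 in CD27+ CMP against MEP and in GMP against CD27- CMP. Of the 93 pathway genes, 64 passed with array weights in CD27+ against CD27- CMP (39 reported), 65 in GMP against CD27- CMP (42 reported) and 30 in GMP against CD27+ CMP (14 reported), which gave 7 in the 6 arrays alone and 8 to 15 when arrays were left out, 9 without GMP replicate 1 and 8 without GMP replicate 2. Gene-by-gene weights gave 64 in CD27+ CMP against MEP (38 reported) and 13 in CD27- CMP against MEP (0 reported), where array centring gave 1, array weights 1 and leaving out arrays 0 to 1. Such rises were not confined to the pathway. Apart from leaving out arrays, the alternatives called at most 23239 of all 45037 probe sets in CD27+ against CD27- CMP (6369 in the main fit). The most were 30200 in GMP against CD27- CMP (6393) and 7617 in GMP against CD27+ CMP (1368). They were 27715 in CD27+ CMP against MEP (7210) and 3820 in CD27- CMP against MEP (20). Only in GMP against CD27+ CMP and GMP against MEP did every same-number pair correlate over 0.1. CD27+ CMP with MEP came near, at 0.402, 0.0924 and 0.198. CD27+ CMP replicate 2 also correlated with GMP replicate 3 at 0.226, so the numbers do not establish a pairing. In GMP against CD27+ CMP and GMP against MEP the replicate block left 3 and 12 probe sets, and 12 and 40 pathway genes. Over all 6 comparisons same-number pairs correlated from -0.328 to 0.576, with 9 of 18 over 0.1 against 11 of 36 pairs with different numbers. The block changed no other call of a member.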
